A study of Homo with 4 samples.

Results

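In H1299 cells, 1473 of the 20263 genes in the count table overlapped another gene on the same chromosome and strand and held 10 or more counts in at least 2 of the 4 libraries. A gene's span ran from the smallest start to the largest end of its transcripts in GRCh38, introns included. Genes whose spans overlapped, directly or through a shared neighbour, formed 1 locus. Without the count rule 2163 genes overlapped on the same strand, so 690 were left out for low counts. The members were chosen by the counts themselves: for 23 members the second-highest count over the libraries was exactly 10, for 13 genes just outside it was 9, and for 445 it was 0. Their presence above that level is therefore not a finding. Of the members, 25 reached 10 counts in both shCtrl libraries and in no shIGF2BP3 library, and 9 the reverse. For these genes a difference between the groups was partly fixed by the rule.

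Genes on the same strand can share DNA in several ways. One gene may lie inside an intron of another, the end of one may run into the start of the next, or a readthrough gene may join the exons of adjacent genes into 1 transcript. In the protocadherin clusters many genes join their own first exon to a common set of later exons. A short read from sequence that such genes have in common fits each of them, so a counting program has to divide it, and the division is an estimate.

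H1299 is a human non-small cell lung cancer line, grown here in culture and infected with lentivirus. Of the 4 mRNA libraries, 2 came from control cells (shCtrl, genotype WT) and 2 from cells carrying short-hairpin RNA against IGF2BP3 (shIGF2BP3, genotype IGF2BP3 knockdown), an RNA-binding protein that binds modified mRNAs. All cells carried a lentiviral vector; which hairpin the libraries carried is not given in the sources used here. The labels call the samples biological replicates.

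The depth was 34652301 and 34817513 counts for the shCtrl libraries, against 33806335 and 29709686 for shIGF2BP3. Between 9.11 and 17.0% of a library's counts were mitochondrial. Overlapping genes held 10.5 to 12.6% of a library, or 7.67 to 8.02% once mitochondrial genes were left out. IGF2BP3, which overlapped no gene on its strand, had 1547 and 1116 counts in shCtrl and 912 and 682 in shIGF2BP3, a log2 change of -0.53 with an adjusted p of 0.472. Of the epithelial markers, the keratins KRT8 and KRT18 were abundant. KRT19 had at most 10 counts in any library, EPCAM at most 12 and CDH1, the E-cadherin gene, at most 2. The mesenchymal marker VIM had 163082 to 195524 counts. In this bulk measurement, fewer cells expressing a gene and less RNA per cell cannot be told apart.

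The 1473 genes fell into 683 loci. In 526 loci 2 or more genes passed the count rule: 329 held exactly 2, 167 held 3, 30 held 4 or more, and the largest held 14. The other 157 loci held 1 gene each, whose partners were below the rule. Among the 774 pairs of overlapping members, 273 were nested, with one span wholly inside the other, and 501 overlapped in part. Over all pairs the median overlap was 9963 bases, or 99.3% of the shorter span. For the 501 that overlapped in part it was 78.4%, and 182 of them shared under 50% of the shorter span. A further 83 members each covered at least 90% of 2 other genes that did not overlap one another, and 54 carried a RefSeq readthrough name. Members that also overlapped a gene on the opposite strand numbered 347; the sources used here do not state whether counting used the strand.

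Overlap of spans was not always overlap of the transcripts that were counted. The transcript with the most counts held a median of 84.8% of a member's counts. These leading transcripts overlapped each other in 578 of the 774 pairs (74.7%) and did not in 196.

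Most loci had an uneven but stable division. The share of a gene is used below for the percent of its locus's counts that it held in a library. The leading gene held at least 90% of the counts in 160 and 154 of the 526 loci in shCtrl and in 150 and 166 in shIGF2BP3. It held under 60% in 106 and 114 loci in shCtrl and in 102 and 105 in shIGF2BP3. Its median share lay between 79.8 and 79.9% in all 4 libraries. The same gene led in all 4 libraries in 441 loci, and the leader differed between libraries in 85.

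The division differed about as much between libraries of 1 group as between the groups. Over the 1304 genes in the share test, the median difference in share was 2.41 percentage points between the shCtrl libraries, 2.32 between the shIGF2BP3 libraries and 2.36 between the group means, although a mean of 2 libraries should vary less than a single one. Differences of over 10 points were found in 171 genes between the shCtrl libraries, in 192 between the shIGF2BP3 libraries and in 160 between the groups. The shares of the groups did not overlap for 574 genes (44%), beside 44.7% for neighbouring genes on the same strand that overlap nothing, taken in pairs no more than 100 kb apart. The share of genes with separated groups was thus close to this background.

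**Figure D1:**
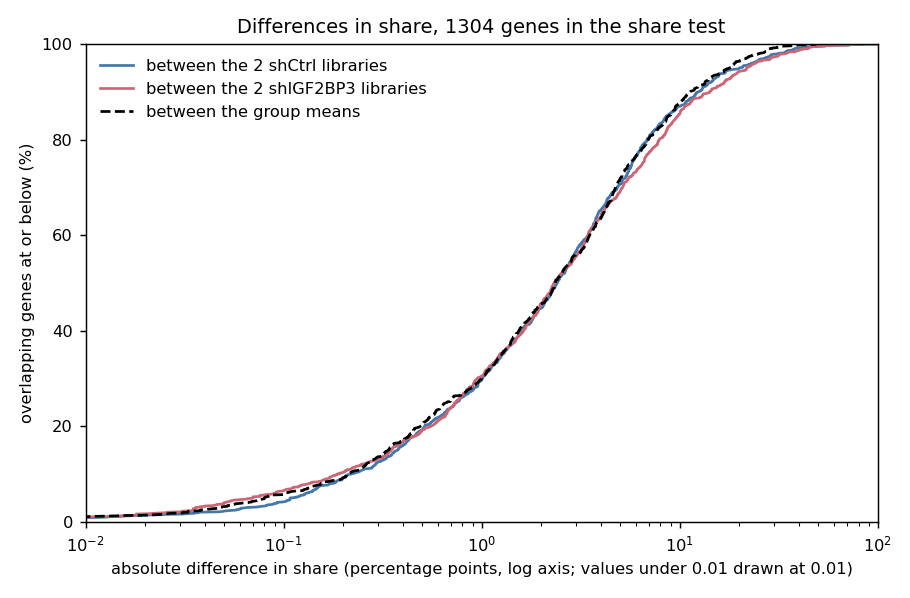
Cumulative percent of the 1304 genes in the share test (vertical axis) against the absolute difference in their share of the locus, in percentage points on a log axis. The blue line compares the shCtrl libraries, the red line the shIGF2BP3 libraries and the dashed line the group means; the lines run together, with medians of 2.41, 2.32 and 2.36 points.

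The share test asked whether a gene's counts changed relative to the total of its locus, using edgeR over all 1304 genes of the 524 loci with at least 2 genes tested. A gene was called at a relative change of at least 1.5-fold with an unadjusted p of at most 0.05. This gave 27 genes with a higher share in shIGF2BP3 and 30 with a lower one, in 54 loci. The called genes were 4.37% of those tested, beside 2.02% of the 7526 neighbouring genes that overlap nothing. At an adjusted p under 0.05 there were 5 genes (0.383%), beside 0 of the neighbouring genes, of which 152 had been called unadjusted. The adjustment was made separately over the 1304 and the 7526 genes. The neighbouring genes thus faced more tests and a stricter cut-off, and the adjusted counts are not like for like. The 5 were ENSG00000255508, HYPK and ENSG00000259171, which had a lower share in shIGF2BP3, and ENSG00000256646 and RAD54L2, which had a higher one.

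Calls lay mostly among genes that held little of their locus. Of 363 tested genes with a mean share under 10%, 41 were called (11.3%), and of the 941 with a larger share, 16 (1.70%). Among the neighbouring genes the corresponding percentages were 5.92 and 1.2%. Members without a RefSeq symbol were called in 11.3% of 230 cases and members covering 2 other genes in 11.8% of 76. Where a gene's leading transcript overlapped that of another member, 46 of 768 were called (5.99%); where it overlapped none, 11 of 535 were (2.06%). The differences between these classes were not tested.

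**Figure D2:**
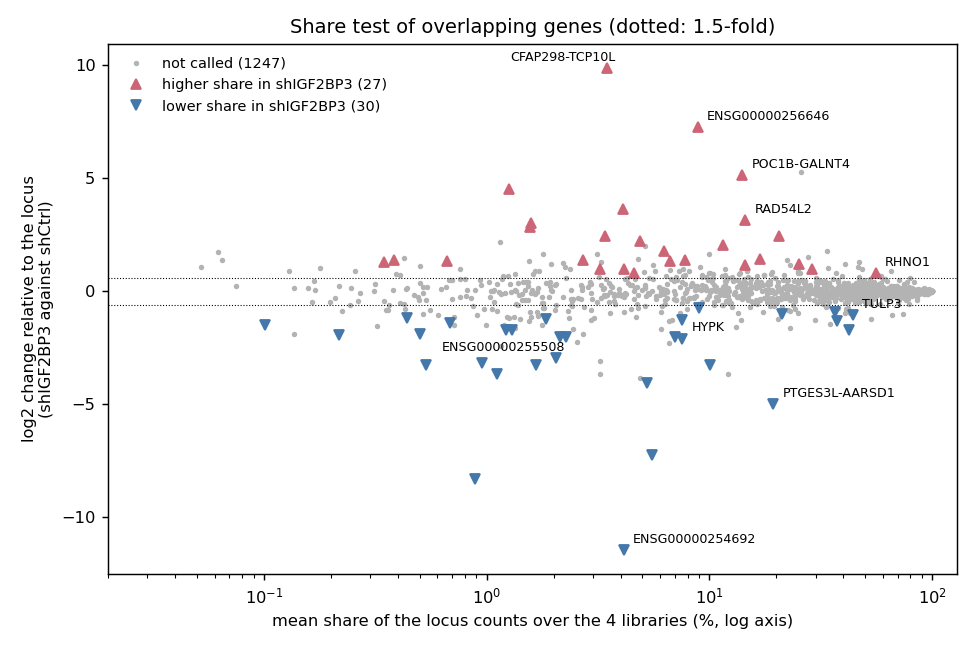
Log2 change of each gene relative to its locus, shIGF2BP3 against shCtrl (vertical axis), against its mean share of the locus over the 4 libraries in percent (log axis), for 1304 genes. Red triangles mark the 27 genes called higher and blue triangles the 30 called lower; of these 57, 41 have a mean share under 10%. Values of genes at 0 in both libraries of a group are fitted and depend on a small added count.

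The locus of EEF1G, a subunit of the translation elongation complex eEF1, and TUT1, a terminal uridylyltransferase, gave the smallest adjusted p. ENSG00000255508 (chr11:62559603-62591531, minus strand) has no RefSeq symbol here and spans almost all of EEF1G (chr11:62559601-62573973) and most of TUT1. It had 2997 and 2906 counts in shCtrl and 331 and 194 in shIGF2BP3. Both shIGF2BP3 libraries were far below both shCtrl libraries. Its share was 3.56 and 3.70% in shCtrl and 0.507 and 0.414% in shIGF2BP3, a log2 change of -2.97 relative to the locus (adjusted p = 0.000439).

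EEF1G itself, with 80234 and 74668 counts in shCtrl and 63989 and 45958 in shIGF2BP3, held 95.0 to 98.0% of the locus. TUT1 had 934 and 1028 counts in shCtrl and 1012 and 725 in shIGF2BP3. Neither partner was called. Per length, EEF1G was at 1290 and 1202 FPKM in shCtrl and 1061 and 876 in shIGF2BP3, and ENSG00000255508 at 14.4 and 14.02 against 1.64 and 1.11.

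ENSG00000256646 (chr7:42909273-42932174, minus strand) covers PSMA2, an alpha subunit of the 20S proteasome, together with most of C7orf25. It had 8 and 11 counts in shCtrl and 1734 and 739 in shIGF2BP3. Its share went from 0.0883 and 0.150% to 21.0 and 14.3%, a log2 change of 7.26 relative to the locus (adjusted p = 0.0118). Nearly all of its counts in shIGF2BP3 were in 1 transcript, ENST00000442788, with 0 counts in both shCtrl libraries and 1729 and 724 in shIGF2BP3.

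PSMA2 had 8907 and 6718 counts in shCtrl and 6030 and 4173 in shIGF2BP3. Within it, ENST00000223321 had 4513 and 3308 counts in shCtrl and 1892 and 1175 in shIGF2BP3, whereas ENST00000436986, the other abundant transcript, had 4016 and 3091 against 3817 and 2829. Added together, ENSG00000256646 and ENST00000223321 held 49.9 and 45.2% of the locus in shCtrl and 44.0 and 37.1% in shIGF2BP3. The sum thus differed far less between the groups than either part, although both shIGF2BP3 libraries lay below both shCtrl libraries. This pair, like the one at HYPK, was chosen after the values were seen. The locus total had a log2 change of -0.10 and was not called.

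HYPK (chr15:43796142-43803043, plus strand), a partner of the N-terminal acetyltransferase NatA, overlaps SERF2, a small protein studied for its effect on protein aggregation. HYPK had 2699 and 2772 counts in shCtrl and 806 and 568 in shIGF2BP3. SERF2 had 17077 and 22468 counts in shCtrl and 25289 and 21508 in shIGF2BP3. HYPK's share was 13.6 and 10.98% in shCtrl and 3.09 and 2.57% in shIGF2BP3, a log2 change of -2.10 relative to the locus (adjusted p = 0.0378).

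Transcript counts at this pair differed in both genes. The main HYPK transcript, ENST00000406925, had 2287 and 2550 counts in shCtrl and 694 and 0 in shIGF2BP3. In SERF2, ENST00000448830, the only one of the 4 most counted in SERF2 whose span runs across HYPK, had 678 and 1273 in shCtrl and 3527 and 3657 in shIGF2BP3. Counts of HYPK and of this SERF2 transcript together made 17.1 and 16.0% of the locus in shCtrl and 16.6 and 19.1% in shIGF2BP3, which overlap. ENST00000442995, a shorter HYPK transcript, had 307 and 118 counts against 18 and 442.

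Per length, HYPK was at 20.2 and 17.2 FPKM in shCtrl and 5.44 and 14.3 in shIGF2BP3, so the groups lay closer on that scale. In a limma test of the ratio of FPKM within the locus the adjusted p for HYPK was 0.702, and without a low-count filter the count test gave 0.0525.

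**Figure D3:**
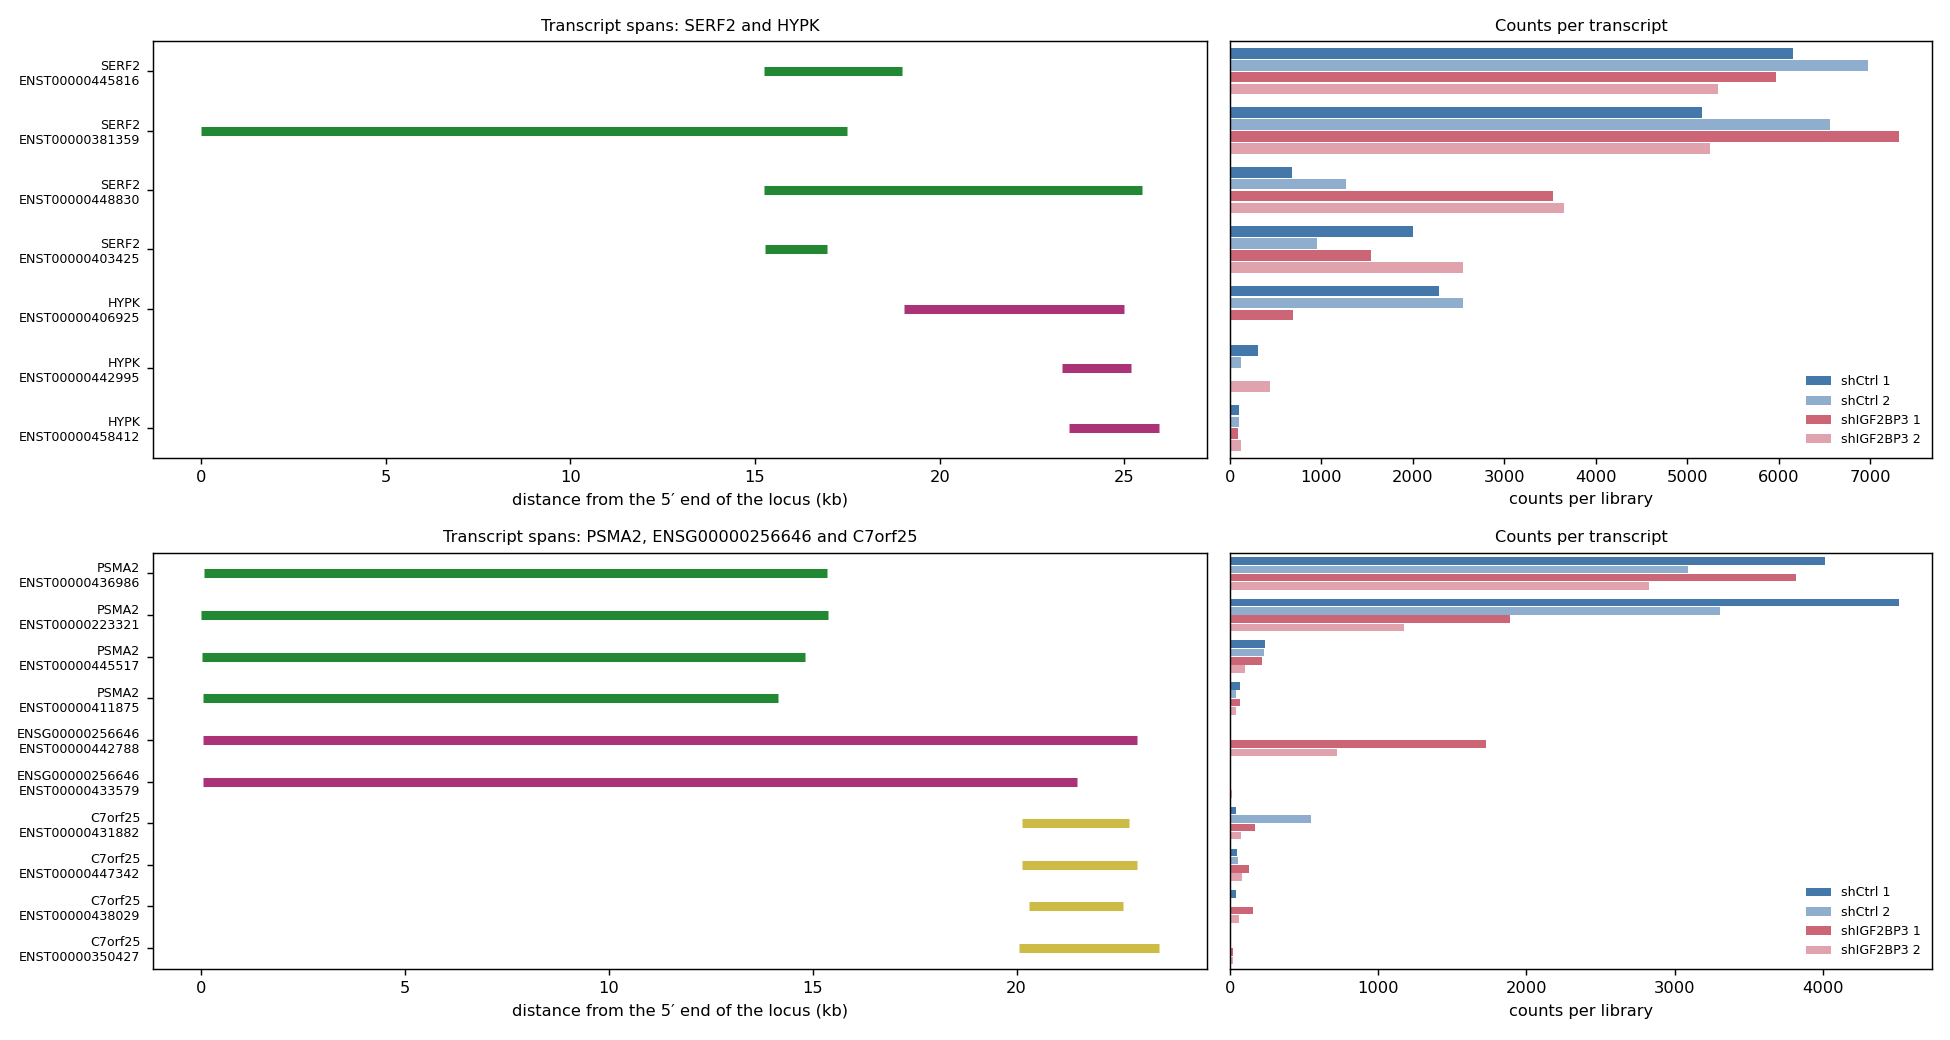
Transcript spans (left, distance in kb from the 5′ end of the locus, introns included) and counts per library (right) for SERF2 and HYPK (top) and for PSMA2, ENSG00000256646 and C7orf25 (bottom). ENST00000448830 spans HYPK and has more counts in both shIGF2BP3 libraries (3527 and 3657) than in either shCtrl library (678 and 1273), while ENST00000406925 of HYPK has fewer (694 and 0 against 2287 and 2550); ENST00000442788 has counts only in shIGF2BP3.

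RAD54L2 (chr3:51541580-51668667, plus strand), a helicase of the SNF2 family, had 49 and 66 counts in shCtrl and 642 and 510 in shIGF2BP3. TEX264, a receptor for autophagy of the endoplasmic reticulum whose span starts inside the 3′ end of RAD54L2, had 1917 and 1933 counts in shCtrl and 1786 and 1469 in shIGF2BP3. RAD54L2 held 2.49 and 3.30% of the locus in shCtrl and 26.4 and 25.8% in shIGF2BP3, a log2 change of 3.16 relative to the locus (adjusted p = 0.0118). All RAD54L2 counts were in ENST00000409535, which ends before the start of the 4 most counted TEX264 transcripts. At this locus the division therefore changed through 1 gene whose counted transcript did not overlap its partner's leading transcripts.

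The last of the 5, ENSG00000259171, had 16 and 17 counts in shCtrl and 0 in both shIGF2BP3 libraries. It thus passed the count rule through shCtrl alone, so a difference between the groups was partly fixed by how members were chosen. In the same locus ANG, the angiogenin gene, had 68 and 46 counts against 74 and 82. Against a floor of 3 counts per library, ENSG00000259171 was at least 4.7-fold lower in shIGF2BP3 in CPM, counts scaled to library size. Its adjusted p was 0.0250. It was named after its values were seen, since only ANG among its tested partners has a symbol.

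Of these 5, ENSG00000255508 alone stayed under 0.05 when any 1 library was left out, with an adjusted p of at most 0.0386. For the other four the highest adjusted p was 0.110 for ENSG00000256646, 0.106 for RAD54L2, 0.166 for ENSG00000259171 and 0.209 for HYPK, and none of these was under 0.05 in any of the 4 smaller fits. In a limma test of the ratio of FPKM within the locus none of the 5 had an adjusted p under 0.05 (0.101 for ENSG00000255508).

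The next 4 loci by share test p, among those with 2 symbols and separated groups, did not reach an adjusted p of 0.05. ENSG00000167807 (chr19:10305427-10316009), which runs across most of ZGLP1 and FDX2, had 278 and 247 counts in shCtrl and 20 and 13 in shIGF2BP3 (adjusted p = 0.0527). Its share went from 9.99 and 9.77% to 0.495 and 0.762%. FDX2, a ferredoxin of mitochondrial iron-sulfur cluster assembly, had 617 and 454 counts against 689 and 605, and RAVER1, an RNA-binding cofactor of the splicing repressor PTBP1, 1487 and 1473 against 2978 and 653. The shares of RAVER1 in shIGF2BP3, 73.8 and 38.3%, lay on both sides of the shCtrl values of 53.4 and 58.3%.

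CFAP298-TCP10L, a readthrough gene over CFAP298, a gene needed for motile cilia, had 0 counts in both shCtrl libraries and 223 and 87 in shIGF2BP3. It thus passed the count rule through shIGF2BP3 alone, the group where it was high. It was at least 57.1-fold higher in shIGF2BP3 against a floor of 3 counts per library, and at least 37.5-fold higher without shIGF2BP3 replicate 1 (adjusted p = 0.0527 in the share test with both). CFAP298 held 99.8 and 99.6% of the locus in shCtrl and 89.7 and 95.7% in shIGF2BP3.

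POC1B-GALNT4 had 11 and 0 counts in shCtrl and 104 and 178 in shIGF2BP3, with shares of 1.31 and 0% in shCtrl and 18.4 and 36.6% in shIGF2BP3 (adjusted p = 0.0527). POC1B, a centriole protein, had 595 and 412 counts in shCtrl and 344 and 250 in shIGF2BP3. GALNT4, a glycosyltransferase of mucin-type O-glycans whose span lies wholly inside both others, had 237 and 173 against 118 and 59. In the gene test below, POC1B-GALNT4 was called higher and GALNT4 lower.

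ENSG00000254692 (chr14:24189157-24213473), which covers most of TM9SF1 and CHMP4A, an ESCRT-III subunit, had 127 and 836 counts in shCtrl and 0 in both shIGF2BP3 libraries. It thus passed the count rule through shCtrl alone, the group where it was high. It was at least 143.2-fold lower in shIGF2BP3 against the same floor, and at least 34.5-fold lower without shCtrl replicate 2 (adjusted p = 0.0947 with both). The shCtrl libraries themselves differed widely, with shares of 2.01 and 14.5%. IPO4, an importin that leads this locus, had 4151 and 2790 counts in shCtrl and 2387 and 1614 in shIGF2BP3.

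RHNO1, which acts with the 9-1-1 clamp in the ATR checkpoint, and TULP3, which carries receptors into cilia, overlap on chromosome 12. RHNO1 had 1275 and 1401 counts in shCtrl and 3951 and 3702 in shIGF2BP3. TULP3 had 2128 and 1831 counts in shCtrl and 1779 and 1302 in shIGF2BP3. TULP3 was thus the larger of the pair in both shCtrl libraries and RHNO1 in both shIGF2BP3 libraries.

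RHNO1 held 37.5 and 43.3% of the locus in shCtrl and 69.0 and 74.0% in shIGF2BP3. The log2 change of RHNO1 was 1.73 (SE 0.17) and that of TULP3 was -0.16 (SE 0.13), with adjusted p-values of 0.101 and 0.651 in the gene test. The locus total had a log2 change of 0.90 and was called, with an adjusted p of 0.179. In the share test the adjusted p was 0.225 for RHNO1 and 0.115 for TULP3. The 4 most counted TULP3 transcripts start after the end of RHNO1, and the overlap of the spans comes from a longer TULP3 transcript that is not among these.

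**Figure D4:**
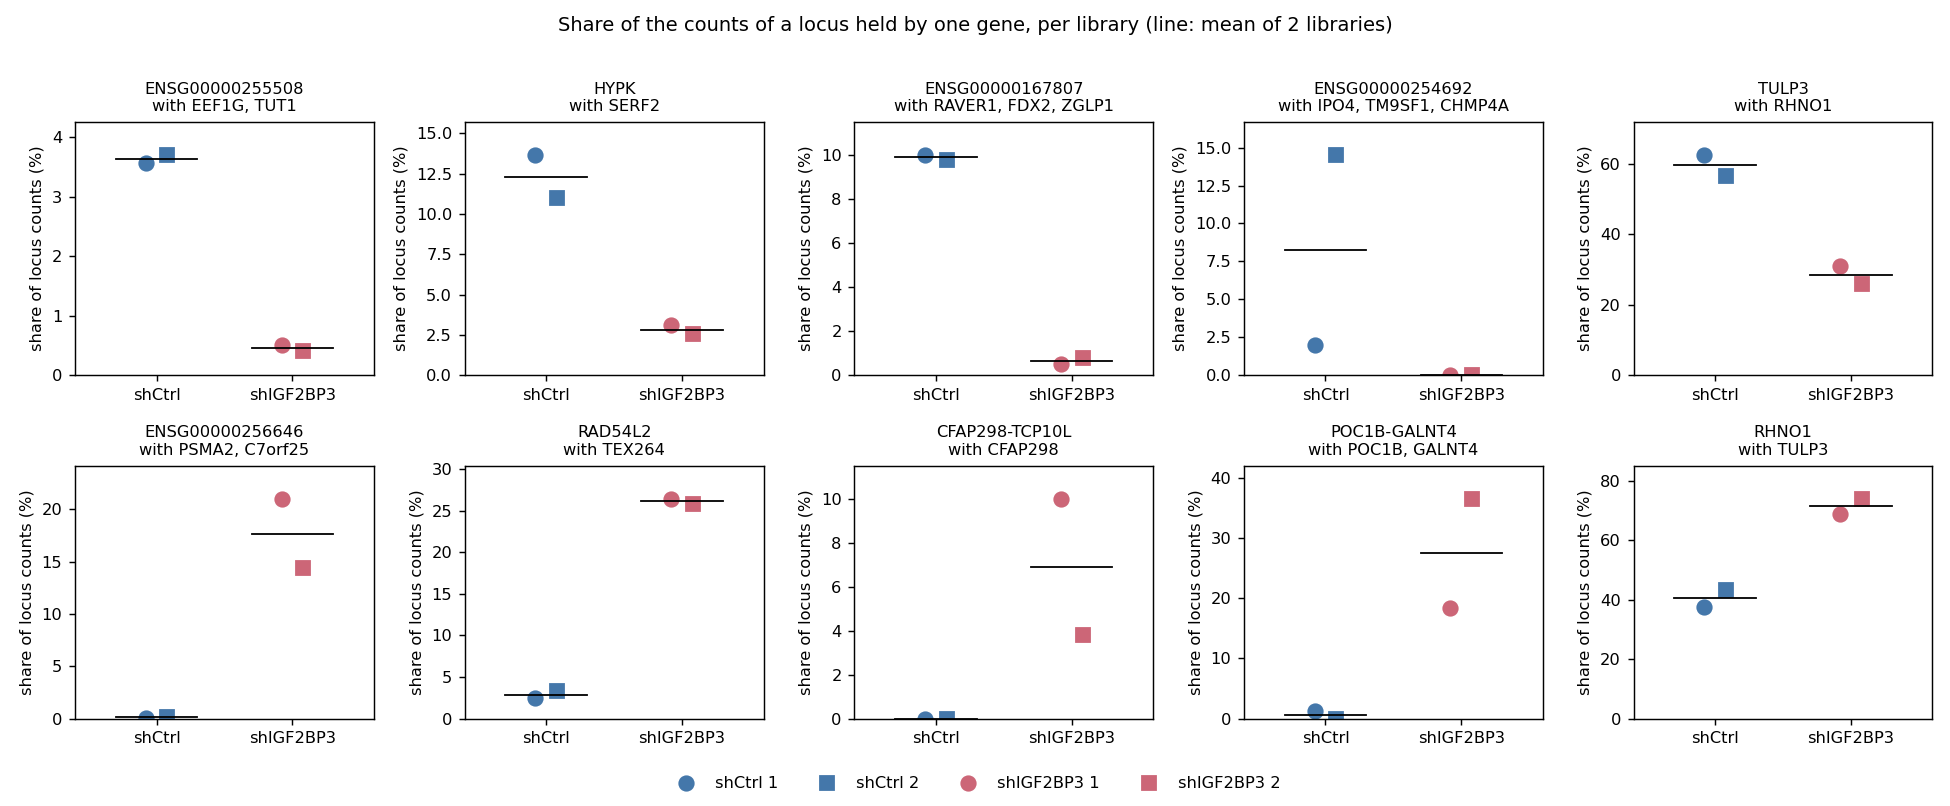
Share of the counts of the locus, in percent, held by 10 genes in each of the 4 libraries (circles replicate 1, squares replicate 2, lines the mean of 2 libraries); each panel has its own axis, starting at 0. In every panel both shIGF2BP3 libraries lie on one side of both shCtrl libraries. The loci were chosen by this, except that of TULP3 and RHNO1, which was named with earlier results of these data known. Replicates lie close for RAD54L2 (26.4 and 25.8% in shIGF2BP3) and far apart for ENSG00000254692 (2.01 and 14.5% in shCtrl).

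Of the 5 loci with the most counts, 3 had no share call. One of them holds NME1 and NME2, nucleoside diphosphate kinases, and their readthrough gene NME1-NME2. NME2 held 58.0 and 58.5% of that locus in shCtrl and 56.5 and 59.3% in shIGF2BP3. NME1-NME2 held 17.6 and 17.3% in shCtrl and 19.6 and 17.2% in shIGF2BP3. The groups overlapped for both, but not for NME1, which held 24.4 and 24.3% in shCtrl against 23.9 and 23.5% in shIGF2BP3.

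The mitochondrial genes COX3, ATP6 and ATP8, subunits of cytochrome oxidase and ATP synthase read from 1 strand with overlaps of 46 bases or fewer, were the most counted locus. COX3 held 83.3 and 85.1% of it in shCtrl and 83.7 and 83.7% in shIGF2BP3. ND4L, next to ND4 of complex I, held 14.3 and 15.1% in shCtrl and 13.1 and 11.9% in shIGF2BP3. The groups overlapped for COX3 and not for ND4L, and none of these mitochondrial genes was called in the share test.

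RefSeq readthrough genes usually held a small part of their locus. The counts are those of the gene as listed, and a transcript listed under such a gene need not run across both of the genes it joins. The readthrough names were given by the position of the whole span, so some may sit on a gene that is mainly one of the joined genes. In 46 of the 54 at least 50% of the counts lay in transcripts that covered at least 50% of the span of the gene, and in 8 less than that. The mean share over the 54 ranged from 0.137 to 100%, was under 10% in 33 and over 50% in 5. Of those 5, only LINC02210-CRHR1 was among the 46. For the others most of the counts lay in transcripts that covered under 50% of the span. Whether those run across both joined genes was not determined. Of the 42 whose joined genes were both measured, 20 had a mean FPKM below both and 0 had one above both. In the share test 5 of 50 were called higher and 5 lower (20.0%), beside 4.37% of all genes tested, and none had an adjusted p under 0.05. Among all tested genes with a mean share under 10%, where most readthrough genes lie, 11.3% were called. The difference was not tested. Of the 44 tested with most counts in such long transcripts, 5 were called higher and 5 lower (22.7%). The 85 tested genes that these readthrough genes join had no share call.

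RPS10-NUDT3 joins RPS10, a protein of the small ribosomal subunit, to NUDT3, a diphosphoinositol polyphosphate phosphatase. It had 1790 and 896 counts in shCtrl and 2017 and 1924 in shIGF2BP3. Its share was 4.10 and 1.67% in shCtrl and 4.89 and 5.92% in shIGF2BP3, a call unadjusted with an adjusted p of 0.692. RPS10 held 84.3 to 93.4% in the 4 libraries.

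Several readthrough genes were divided very differently in libraries of 1 group. PTGES3L-AARSD1 had 1165 counts in one shCtrl library and 11 in the other, against 6 and 25 in shIGF2BP3. Its share was 74.8 and 0.603% in shCtrl, so 1 of the shCtrl libraries lay between the shIGF2BP3 libraries at 0.335 and 1.87%. Even so the gene was called lower, with a log2 change of -4.98 relative to the locus and an adjusted p of 0.888. Without shCtrl replicate 1 that change was 0.79, in the other direction. AARSD1, its alanyl-tRNA editing partner, had 377 and 1790 counts in the same libraries. JMJD7-PLA2G4B held 11.3 and 61.0% in shCtrl and 57.4 and 11.5% in shIGF2BP3.

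Other genes with readthrough names held nearly all of their counts in shorter transcripts. ZNF664-RFLNA was listed with 17.9 and 56.1% of its locus in shCtrl and 55.6 and 51.9% in shIGF2BP3, but transcripts that covered at least 50% of its span held at most 0.29% of its counts in any library. BOLA2-SMG1P6 was listed with 53.5 to 62.7% over the 4 libraries, and such long transcripts held 3.76 to 7.14% of its counts. TNFAIP8L2-SCNM1, the only member of its locus, had 1827 and 1985 counts in shCtrl and 2103 and 2053 in shIGF2BP3, of which long transcripts held at most 1.17%. The values of these 3 genes are therefore mostly those of transcripts that cover under 50% of the span of the gene. Their readthrough names came from matching the whole span by position and need not describe these transcripts. No gene here was given the symbol SCNM1 or RFLNA, the downstream genes in such names. Their counts may therefore stand under the readthrough names. The most counted ZNF664-RFLNA transcript, ENST00000546355, starts after the end of the 4 most counted ZNF664 transcripts. TVP23C-CDRT4, a called gene, had close replicates, with 48.1 and 47.7% in shCtrl and 25 and 26.3% in shIGF2BP3 (adjusted p = 0.996). Those genes outside the 5 readthrough genes of highest CPM were named after their values were seen.

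**Figure D5:**
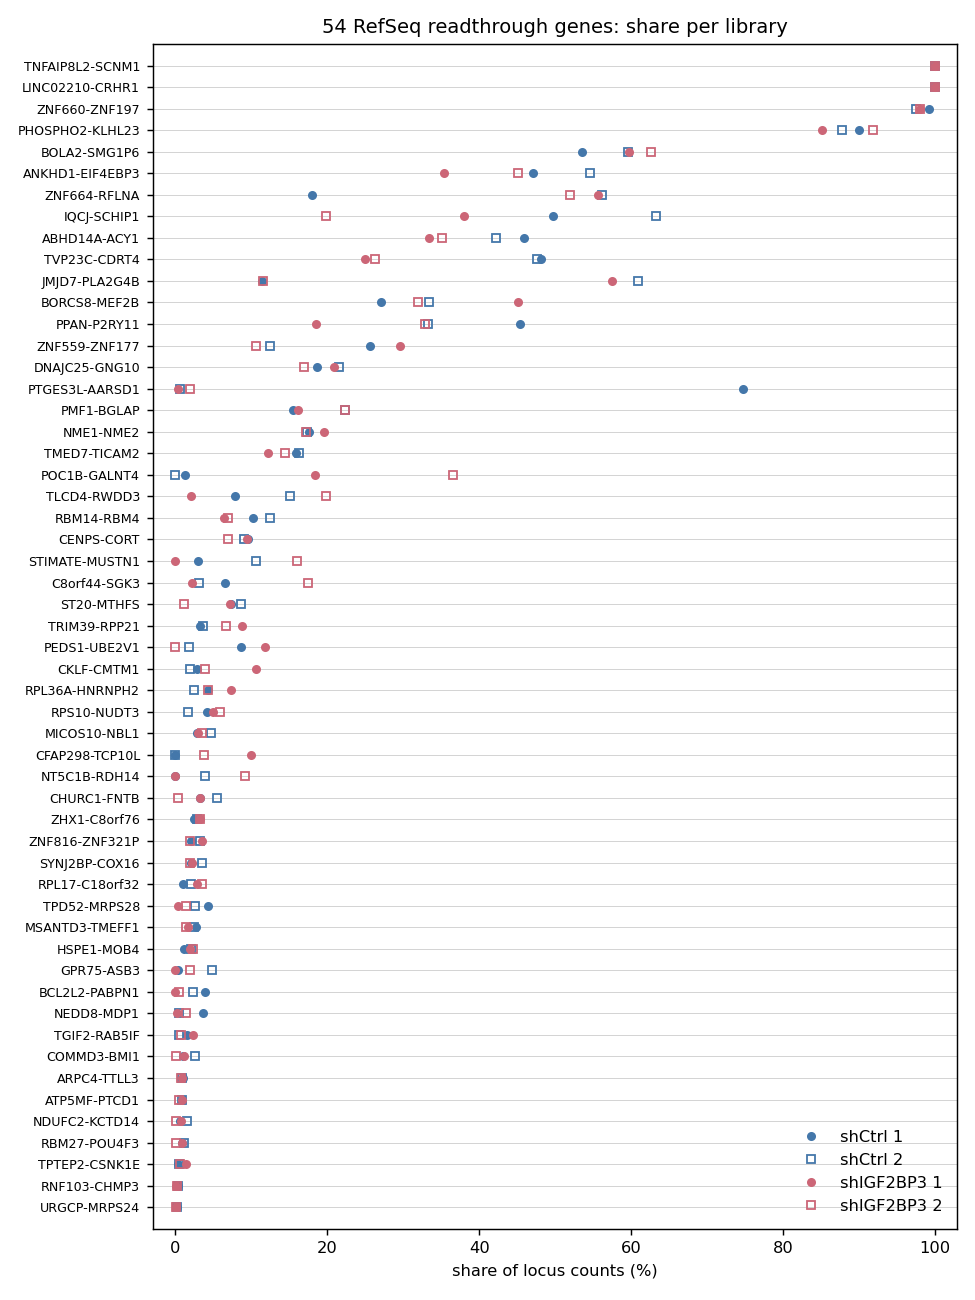
Share of the locus counts, in percent, held by each of 54 genes given a RefSeq readthrough name by position, in the 4 libraries (blue shCtrl, red shIGF2BP3, filled circles replicate 1, open squares replicate 2), ordered by mean share. Most lie under 10%; PTGES3L-AARSD1 has 1 shCtrl library at 74.8% and the rest under 2%, and JMJD7-PLA2G4B has 1 library of each group near 11% and 1 near 60%.

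Among the other readthrough genes with a share call, TPD52-MRPS28 had 154 and 77 counts in shCtrl and 15 and 60 in shIGF2BP3. TPD52, a gene of membrane traffic often amplified in tumours, had 1699 and 1515 counts in shCtrl and 3365 and 3228 in shIGF2BP3, and MRPS28 of the mitochondrial ribosome 1709 and 1390 against 1408 and 1228. TPD52 thus stood about level with MRPS28 in shCtrl and well above it in both shIGF2BP3 libraries. Its log2 change of 1.26 was called, with an adjusted p of 0.118, and the total of the locus had a log2 change of 0.73.

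RBM14-RBM4 joins RBM14 to RBM4, both RNA-binding proteins. It had 664 and 778 counts in shCtrl and 323 and 269 in shIGF2BP3, with shares of 10.2 and 12.4% against 6.41 and 6.96% (adjusted p = 0.979). RPL36A-HNRNPH2, which joins a protein of the large ribosomal subunit to a splicing regulator, had 1180 and 844 counts against 2534 and 1444. Its share was 4.32 and 2.42% in shCtrl and 7.34 and 4.26% in shIGF2BP3, called higher (adjusted p = 0.850). The counts did not overlap between groups for either gene, but the shares of RPL36A-HNRNPH2 did.

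Outside the readthrough genes, CS, the citrate synthase of the Krebs cycle, had 2607 and 9363 counts in shCtrl and 1647 and 809 in shIGF2BP3. CNPY2, joined to CS only through ENSG00000144785, which overlaps both, had 3128 and 3654 against 2903 and 3471. CS held 37.0 and 65.8% of the locus in shCtrl and 30.3 and 16.4% in shIGF2BP3, called lower with an adjusted p of 0.888, although the shCtrl libraries were further apart than the shIGF2BP3 libraries. HOXC6, a developmental transcription factor in a locus of HOXC genes, had 319 and 267 counts in shCtrl and 354 and 1013 in shIGF2BP3, so that 1 shIGF2BP3 library was close to the controls. The genes of these 3 paragraphs were named after their values were seen.

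The gene test compared the groups for each gene without regard to its locus. Of 1460 members tested, 54 were called higher in shIGF2BP3 (3.70%) and 67 lower (4.59%), beside 2.54 and 2.78% of all 13379 genes. Over all 13379 genes, library totals in place of TMM factors gave 195 higher and 485 lower, beside 340 and 372 with TMM factors. For members with library totals the split was 36 higher and 87 lower, that is 29.3% higher instead of 44.6%. None had an adjusted p under 0.05; 190 had an unadjusted p of at most 0.05 (13.01%, beside 10.5% of all genes) and the smallest adjusted p was 0.0626, while DESeq2 gave 21 members under 0.05 (1.44%, beside 157 or 1.17% of all genes). The CPM of the groups did not overlap for 649 members (44.5%, beside 46.8% of all genes). Members' replicates spread more, with a median biological coefficient of variation of 22.8% against 20.4% for all genes.

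Few of these calls came with a called change of the whole locus. Of the 54 called higher, 15 lay in a locus whose total was also called higher and 20 had a called rise in share. Of the 67 called lower, the numbers were 15 and 21. Over the 681 loci tested, 16 totals were called higher and 16 lower (4.70%), beside 2.53 and 2.77% (together 5.3%) of all units in that test. With library totals the split was 9 higher and 25 lower, and the split of all units was not obtained. None had an adjusted p under 0.05 (89 at an unadjusted p of at most 0.05, smallest adjusted p 0.0821, DESeq2 6 loci under 0.05 or 0.881%, beside 1.24% of all units).

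Of 524 loci with 2 or more genes tested, 8 had one gene called higher and another lower, and 4 had 2 or more called the same way. No rate for neighbouring genes was obtained beside these counts. The genes of this and the next paragraph were named after their values were seen. CRCP, a subunit of RNA polymerase III, had 203 and 180 counts in shCtrl and 219 and 1257 in shIGF2BP3, and ASL, the urea cycle enzyme argininosuccinate lyase, had 2595 and 2294 against 1655 and 968. BLOC1S6, a subunit in lysosome-related organelle formation, had 200 and 138 against 195 and 1056, and SQOR, a mitochondrial sulfide oxidase, 851 and 736 against 514 and 388. In both loci the gene called higher was high in only the second shIGF2BP3 library. Without that library the log2 change fell from 2.28 to 0.24 for CRCP and from 2.22 to 0.27 for BLOC1S6. ENSG00000284461 had 886 and 980 counts in shCtrl and 1500 and 2604 in shIGF2BP3, and ENSG00000154710, whose span it overlaps, 2313 and 2011 against 780 and 465; there both libraries of a group lay on one side.

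That locus was also 1 of 10 in which one gene led in both shCtrl libraries and another in both shIGF2BP3 libraries, as TULP3 and RHNO1 did. The 10 were among 526 loci, in 85 of which the leader differed between libraries in any way. How many such exchanges arise without a group difference was not tested. Some of these exchanges were small: H3C4, a histone gene, held 50 and 49.5% of its locus in shCtrl and 47.3 and 44.1% in shIGF2BP3. CD320, the receptor for transcobalamin-bound vitamin B12, held 64.5 and 58.2% in shCtrl and 46.0 and 39.1% in shIGF2BP3, and NDUFA7 of complex I took the lead. The locus of TYMP, thymidine phosphorylase, had the lowest adjusted p of the locus totals (0.0821) and a log2 change of -1.999. Its main gene ENSG00000130489 had 950 and 992 counts in shCtrl and 181 and 155 in shIGF2BP3, while TYMP had 71 and 131 against 69 and 52 and so held a larger share, 25.9 and 23.4% against 6.65 and 11.2%.

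Changes of overlapping genes were hardly related to each other. Over 749 pairs of overlapping members, the log2 changes had a Pearson correlation of -0.08 and opposite signs in 51.0%; over 3763 neighbouring pairs that overlap nothing, the correlation was 0.11 and signs were opposite in 44.9%. These are correlations across pairs within the same 4 libraries, in which genes share members and are not independent.

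The 81 members with a ZNF symbol, mostly zinc-finger repressors that lie in clusters, had 2 genes called higher and 1 lower (3.70%, beside 5.32% of all genes), and none of 73 had a share call, beside 4.37% of all genes in that test. Of 46 protocadherin and UGT1A genes listed for their shared exons, 43 had a gene in the table by position, 19 were members and 9 had 0 counts in all libraries. Of 17 of these tested, 1 was called higher and none lower (5.88%, close to the 5.32% of all genes). PCDHA13, the gene called, had 8 and 8 counts in shCtrl and 37 and 11 in shIGF2BP3, so it passed the count rule through shIGF2BP3 alone.

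In the gamma protocadherin cluster, PCDHGC3 had 552 and 599 in shCtrl and 574 and 426 in shIGF2BP3. PCDHGA3 had 262 and 1021 in shCtrl and 1136 and 1044 in shIGF2BP3. PCDHGB6 had 131 and 25 against 20 and 21 and was called lower in share, by a log2 change of -2.04 with an adjusted p of 0.888, which became -0.32 without shCtrl replicate 1. In PCDHGA3 and PCDHGB6 the first shCtrl library stood apart from the other 3.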

How the data were processed

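The 4 mRNA libraries of H1299 cells fall into 2 groups of 2 as the labels give them. The authors deposited estimated counts and FPKM per transcript on GRCh38; the submitters' processing notes list CASAVA, Trimmomatic, HISAT2, bedtools and FastQC, and the counting program, annotation and use of strand are not given in the sources used here. Counts were whole numbers and were summed per gene; deposited FPKM values were summed likewise and used for levels and as an alternative. Symbols were matched by position to RefSeq GRCh38.p14 (18413 of 20263 genes). Gene, share and locus tests used edgeR 4.0.16 (quasi-likelihood, diffSpliceDGE for shares), TMM factors, filterByExpr and Benjamini-Hochberg adjustment over all genes of each test separately. Calls needed a fold change of 1.5 and p of at most 0.05, the study's thresholds. Alternatives used DESeq2 1.42.0 and limma 3.58.1 with log2(FPKM + 1) or log2(FPKM + 0.1). Scripts were tested on simulated data. Named were IGF2BP3, the 8 loci of smallest share p with 2 symbols and separated groups, the 5 loci and 5 readthrough genes of highest CPM, RAD54L2 and RHNO1. Members and lists were chosen with earlier results of these data known. Of the members, 13 were not in the gene test and 170 not in the share test, having no tested partner or too few counts; 1 tested gene was no member. One gene listed on both strands was placed on the strand of most transcripts. Precision is limited by n = 2. The floors cover counting error only, while the SEs come from the quasi-likelihood test and include the estimated spread between replicates.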

Additional observations from a re-analysis of the deposited data

How the results depend on the processing

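With 2 libraries per group, counts of calls moved with both the tool and the scaling. For members in the gene test (54 higher, 67 lower, 0 at an adjusted p under 0.05), limma gave 26 higher with log2(FPKM + 1) and 33 with log2(FPKM + 0.1). Over all 10947 genes in those fits, 127 and 175 were called higher, beside 340 of 13379 in the main fit. A fold of 2 left 26 members higher and 36 lower, with no count over all genes obtained. The adjusted count was 21 with DESeq2 (157 of all 13379 genes), 8 without a low-count filter (17 of 15806), and 5 and 6 with the FPKM scales (8 and 9 of 10947). In the share test (27 higher, 30 lower, 5 adjusted), voom gave 66, 71 and 16, the FPKM ratio 45, 47 and 0, overlap of at least 50% of the shorter span 17 higher, and overlap of transcripts with counts 8 adjusted. For locus totals (16 higher, 16 lower, 0 adjusted), library totals gave 9 and 25, and the adjusted count was 6 with DESeq2 and 1 without a filter. The cause was not tested. Library totals moved the median log2 change of all genes to -0.08.

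Leaving out 1 library at a time, where a lone library is assumed to vary like the others, gave 43 to 91 members higher, 64 to 137 lower and 0 to 25 adjusted. Adjusted calls of members in the gene test came only from the fits without either shIGF2BP3 replicate 1 or its replicate 2. In those fits genes outside the members passed as well. The calls over all genes also moved from fit to fit, so these ranges alone do not set members apart. Shares gave 31 to 40 higher, 25 to 52 lower and 4 to 6 adjusted, and loci 9 to 42 higher, 15 to 34 lower and 0 to 2 adjusted. Of 464 values for 43 named results, 4 changed direction: PTGES3L-AARSD1 in the share test ranged from -6.59 to 0.79 on the log2 scale, and 3 locus totals that were not called also changed sign. The locus of ENSG00000167807 ranged from -0.26 to 0.65, that of ENSG00000256646 from -0.29 to 0.062 and that of RPS10-NUDT3 from -0.41 to 0.034. The labels do not say whether a replicate number marks a shared culture. Libraries with the same number in the labels did not deviate together (r = 0.04 across genes), but the headers of the deposited table number the shIGF2BP3 libraries 2 and 3, so the numbering is uncertain. With a replicate block on the labels' numbers, 0 genes were adjusted calls in the share test, 26 were called higher and 32 lower, and the gene test gave 59 higher and 86 lower.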
